A study of Homo sapiens with 9 samples.

Results

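The genes described here are 10 genes of the thioredoxin and peroxiredoxin system, namely TXN, TXN2, TXNRD1, TXNRD2, SRXN1, PRDX1, PRDX2, PRDX3, PRDX6 and TXNIP, out of 62703 rows in the authors' expression table. The list was drawn up with earlier results of these data known, and its rows were found by symbol. Each symbol stood in 1 row, and all 10 passed the filter on low values (a mean of at least 1 TPM, a length-scaled share of all transcripts, over the 9 libraries). RNA was sequenced from human cells labelled HepG2, the name of a liver cancer line, in 3 groups of 3 libraries, and every group had spent 24 h in the saturated fatty acid palmitic acid at 750 µM. One group then received 20 µM curcumin, a turmeric polyphenol, together with 5 µM CuCl2 for 12 h (the curcumin-CuCl2 group below), another received 20 µM curcumin without copper for 12 h, and the third had palmitic acid alone. The labels describe neither cells without palmitic acid, nor a vehicle, nor a further 12 h of culture for palmitic acid alone, so any difference from that group includes whatever those hours changed.

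Thioredoxins are small proteins that reduce disulfide bonds in other proteins, and thioredoxin reductases, which are selenoproteins, recharge them with electrons from NADPH. Peroxiredoxins spend those electrons on the removal of peroxides. A peroxiredoxin whose active cysteine becomes overoxidised is repaired by sulfiredoxin, the product of SRXN1, and thioredoxin is held in check by the thioredoxin-interacting protein, the product of TXNIP. In liver cells the system works beside glutathione, and TXN, TXNRD1, SRXN1 and PRDX1 are known targets of the transcription factor NRF2, whereas TXNIP is known for its induction by glucose through the transcription factors MondoA and ChREBP.

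Some properties of the libraries bear on every value below. Liver markers were nearly missing, so the values go against the label and the identity of the cells is in doubt: 20 of 23 hepatocyte genes had a mean under 1 TPM, and 6, among them ALB and APOB, were listed at 0 in every library. HNF4A, a defining transcription factor of hepatocytes, averaged 0.148 TPM and AFP, a fetal liver gene, 0.643 TPM. The 3 genes above 1 TPM were CPS1, FOXA1 and VTN, with means of 309, 4.31 and 7.46 TPM. CPS1, a urea cycle gene, was thus an abundant exception. The summed TPM of the list, which comes almost wholly from CPS1, was 318 to 340 in the curcumin-CuCl2 group, 294 to 370 in the curcumin group and 278 to 343 with palmitic acid alone. Of 7 epithelial and filament genes, KRT7, KRT8, KRT18 and VIM were abundant, while CDH1 averaged 0.4 TPM and KRT19 and EPCAM were listed at 0 in 8 of 9 libraries each. Of the 4 abundant genes, KRT8 was lower than with palmitic acid alone in both curcumin groups, at a limma adjusted p-value under 0.05. KRT18 was lower at that threshold in the group without copper, with a log2 fold change of -0.41. With CuCl2 its log2 fold change was similar, at -0.37, and just missed the threshold (limma adjusted p = 0.0513). The list, whose sum comes almost wholly from those 4 genes, amounted to 3483 to 3565 TPM in the curcumin-CuCl2 group, 3331 to 3708 TPM in the curcumin group and 4239 to 4706 TPM with palmitic acid alone. Of 10 fibroblast genes 3 were tested, and FAP was lower in the curcumin-CuCl2 group (log2 fold change -0.95, limma adjusted p = 0.0274). In the curcumin group its log2 fold change was -0.64, which missed the threshold (limma adjusted p = 0.0961). That list summed to 15.2 to 19.7 TPM in the curcumin-CuCl2 group, 17.6 to 22.4 TPM in the curcumin group and 17.2 to 21.1 TPM with palmitic acid alone, with PDGFRA at 0. Transcripts of mitochondrial DNA held 10.7%, 11.8% and 11.4% of TPM in curcumin-CuCl2 replicates 1 to 3, 10.4%, 12.4% and 10.9% in the curcumin replicates, and 13%, 12.5% and 10.1% in the replicates with palmitic acid alone. The part of these marker lists in the results was not tested, and the mitochondrial share was also entered in the fit as a covariate.

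The promoters of 3 genes are shown because their genes stand for different behaviours: TXNIP fell, SRXN1 rose, and TXNRD1 varied among libraries of the same group. Each runs 5′ to 3′ on the gene's own strand from 250 bases before the annotated start to 50 after (RefSeq, GRCh38.p14), where 7 of the 10 genes matched by symbol. The TXNIP window lies at chr1:145996530-145996829 on the minus strand, the TXNRD1 window at chr12:104215529-104215828 on the plus strand and the SRXN1 window at chr20:653151-653450 on the minus strand. Capitals mark motif matches.
TXNIP: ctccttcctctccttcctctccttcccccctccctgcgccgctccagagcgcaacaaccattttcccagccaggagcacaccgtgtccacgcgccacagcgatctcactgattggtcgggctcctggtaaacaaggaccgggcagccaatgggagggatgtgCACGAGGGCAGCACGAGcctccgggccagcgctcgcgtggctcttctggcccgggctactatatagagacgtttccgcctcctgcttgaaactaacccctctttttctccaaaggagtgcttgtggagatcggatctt
TXNRD1: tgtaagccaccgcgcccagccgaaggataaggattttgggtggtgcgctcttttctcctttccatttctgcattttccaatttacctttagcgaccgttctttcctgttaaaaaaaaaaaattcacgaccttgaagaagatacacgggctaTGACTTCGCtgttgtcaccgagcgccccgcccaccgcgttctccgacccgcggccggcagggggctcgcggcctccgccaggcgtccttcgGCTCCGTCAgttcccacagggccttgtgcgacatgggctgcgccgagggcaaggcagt
SRXN1: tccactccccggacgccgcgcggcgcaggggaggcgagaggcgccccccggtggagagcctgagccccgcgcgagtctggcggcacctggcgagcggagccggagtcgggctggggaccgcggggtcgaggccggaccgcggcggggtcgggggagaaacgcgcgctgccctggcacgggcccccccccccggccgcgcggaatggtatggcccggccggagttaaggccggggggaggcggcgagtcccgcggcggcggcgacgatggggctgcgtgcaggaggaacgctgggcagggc
In TXNIP the capitals mark a form of the carbohydrate response element, to which MondoA and ChREBP bind, written here as CACGNG, a spacer of 5 bases and CACGNG. With the first base of the transcript as position 0, the match spans -88 to -72. Only 20 of 35116 promoter windows of this length, 0.057%, held that pattern on either strand, and the other 6 windows of these genes did not. This form was chosen with TXNIP in mind, so its rarity is not independent evidence about that gene. In TXNRD1 the capitals mark the core of the antioxidant response element bound by NRF2, TGACNNNGC, which occurred at -99 to -91 and, on the opposite strand, at -8 to 0. Neither match overlapped another motif searched. That core was present in 13.3% of all windows on either strand and in none of the other 6, SRXN1 included. The E-box CACGTG, which reads the same on both strands and was found in 7.26% of all windows, occurred only in PRDX3, at -157 to -152. Letters shortly after the annotated start occurred in 2 of 24 annotated transcripts of TXNRD1, 1 of 4 of TXNIP and 1 of 1 of SRXN1. For TXNRD1 and TXNIP the window may therefore not belong to the form measured here. A match of letters is not evidence of binding, and sites outside these windows, such as those at other starts of a gene, were not searched.

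The 10 genes spanned a wide range of abundance. Over all 9 libraries PRDX1 was the highest, with a mean of 1720 TPM and rank 90 among 13443 genes tested, followed by TXN at 1513 TPM. PRDX2 followed with 602 TPM, PRDX6 with 540 TPM, TXNRD1 with 379.7 TPM, SRXN1 with 191 TPM and PRDX3 with 146 TPM. Lowest were TXN2 at 61.7 TPM, TXNRD2 at 41.3 TPM and TXNIP at 27.9 TPM, the last at rank 4378. With palmitic acid alone some neighbours in that order were not separated: the libraries of PRDX1 and TXN overlapped, as did those of PRDX2 and PRDX6, of SRXN1 and PRDX3, and of TXNRD2 and TXNIP. In the curcumin-CuCl2 group no 2 of the 10 genes overlapped, and in the curcumin group PRDX6 overlapped both PRDX2 and TXNRD1. TPM is scaled by length, so these levels can be set side by side.

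**Figure D1:**
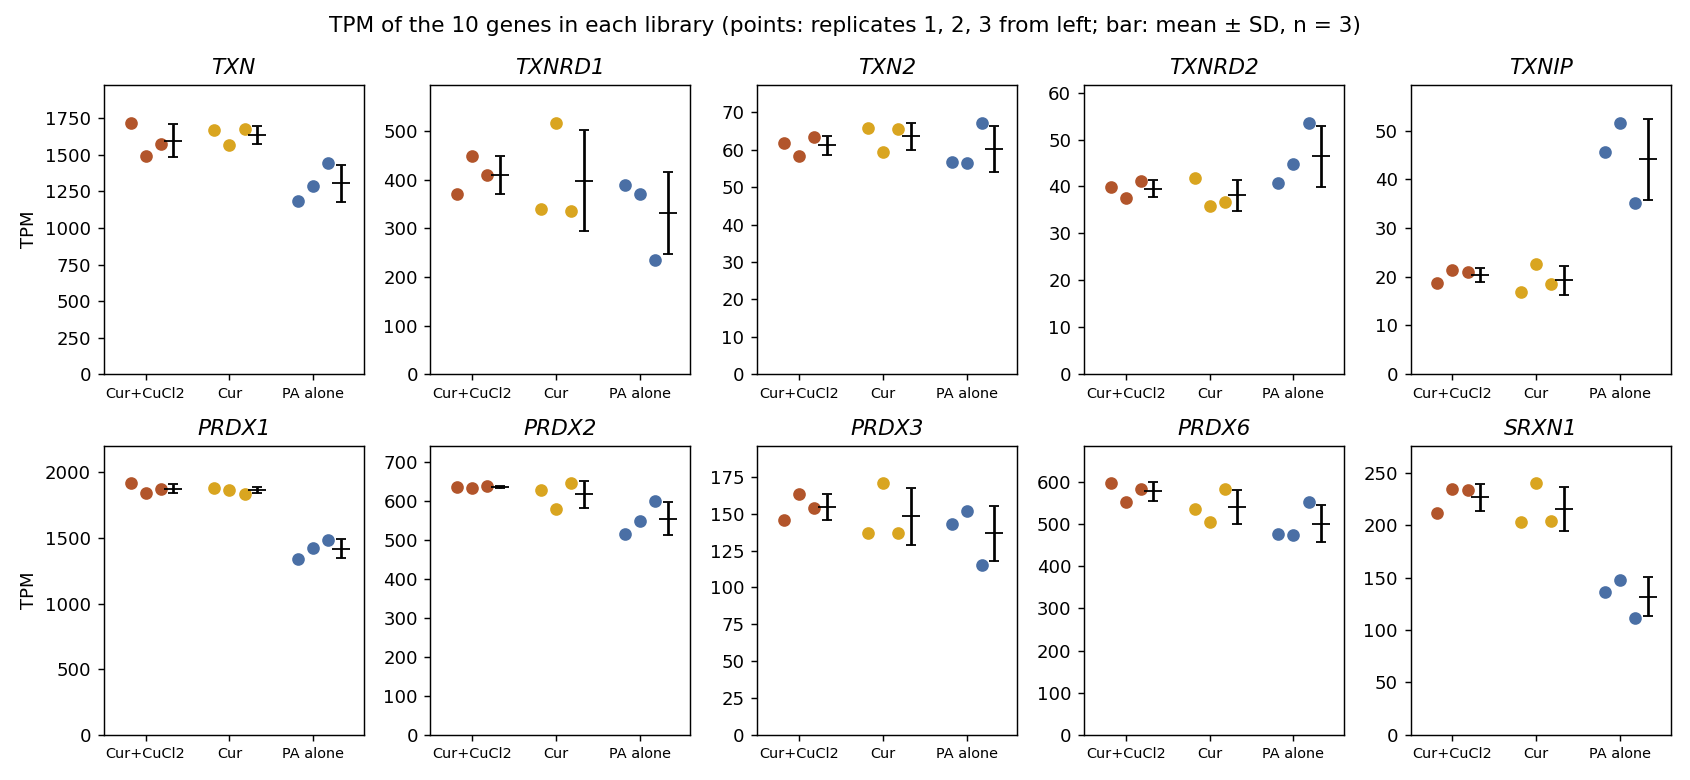
Each panel plots TPM (linear axis from 0) of 1 gene in the 3 curcumin-CuCl2 libraries, the 3 curcumin libraries and the 3 libraries with palmitic acid alone; points are libraries and bars are mean ± SD. SRXN1 and PRDX1 lay higher and TXNIP lower in every curcumin library than in any library with palmitic acid alone.

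Curcumin, with and without CuCl2, was set against palmitic acid alone for the effect of the treatment on these transcripts. The same 3 of the 10 genes passed in both comparisons: SRXN1 and PRDX1 rose, and TXNIP fell. TXNIP had the largest change of the 10, to a mean TPM of 0.46 times that with palmitic acid alone for curcumin with CuCl2 and 0.436 times for curcumin. The other 7 genes did not pass, although TXN was higher in every curcumin library. A gene passed where limma's p-value, after Benjamini-Hochberg adjustment across the 13443 genes tested, was under 0.05. Of all those genes 1.44% passed for curcumin with CuCl2 and 1.96% for curcumin, of which 0.543% were higher and 0.9% lower for curcumin with CuCl2, and 0.759% higher and 1.21% lower for curcumin. Both comparisons use the same 3 libraries with palmitic acid alone, so they are not independent of each other. In RNA from whole cultures, fewer cells that express a gene and less RNA per cell cannot be told apart.

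TXNIP, on chromosome 1 at 145992435 to 145996600 on the minus strand (GENCODE 29, GRCh38), had 18.6, 21.3 and 20.9 TPM in the curcumin-CuCl2 libraries, 16.8, 22.6 and 18.4 TPM in the curcumin libraries and 45.6, 51.6 and 35.1 TPM with palmitic acid alone. All 6 curcumin libraries were below the lowest library with palmitic acid alone. The log2 fold change was -1.07 for curcumin with CuCl2 (95% interval -1.41 to -0.73, limma adjusted p = 0.0113) and -1.15 for curcumin (-1.49 to -0.81, limma adjusted p = 0.00744). For curcumin the fall also passed without each library in turn and was lost only when the other group was left out of the fit (limma adjusted p = 0.0828). For curcumin with CuCl2 it was lost without replicate 1 or 2 of palmitic acid alone or any curcumin-CuCl2 replicate, at limma adjusted p-values of 0.0501 to 0.0762.

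SRXN1, on chromosome 20 at 646615 to 653370 on the minus strand, had 212, 234.5 and 234.01 TPM in the curcumin-CuCl2 libraries, 203, 239.8 and 204 TPM in the curcumin libraries and 136, 148 and 112 TPM with palmitic acid alone. The lowest curcumin library stood above the highest with palmitic acid alone. The log2 fold change was 0.78 for curcumin with CuCl2 (SE 0.11, limma adjusted p = 0.0101) and 0.71 for curcumin (SE 0.11, limma adjusted p = 0.0164), which are ratios of mean TPM of 1.72 for curcumin with CuCl2 and 1.64 for curcumin. For curcumin the call was lost without replicate 1 of palmitic acid alone or any curcumin replicate (limma adjusted p between 0.0502 and 0.062), without the filter on low values (limma adjusted p = 0.054), and with only the 2 groups in the fit (limma adjusted p = 0.122). For curcumin with CuCl2 it was lost without replicate 2 or 3 of that group (limma adjusted p = 0.067 and 0.0673).

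PRDX1, which encodes the main cytosolic peroxiredoxin, lies on chromosome 1 at 45511036 to 45523047 on the minus strand. It had 1917, 1842 and 1872 TPM in the curcumin-CuCl2 libraries, 1882, 1869 and 1838 TPM in the curcumin libraries and 1344, 1426 and 1485 TPM with palmitic acid alone. Both curcumin groups were narrow, and neither overlapped palmitic acid alone. The log2 fold change was 0.41 for curcumin with CuCl2 (SE 0.05, limma adjusted p = 0.00796) and 0.39 for curcumin (SE 0.05, limma adjusted p = 0.00814). Mean TPM was 1.32 times that of palmitic acid alone for curcumin with CuCl2 and 1.31 times for curcumin. The call was lost in both comparisons with median-of-ratios scaling, with only the 2 groups in the fit and without a variance trend (limma adjusted p of 0.0537 to 0.0925 for curcumin with CuCl2 and 0.0555 to 0.122 for curcumin). It was also lost for curcumin without curcumin replicate 1 or 3 (limma adjusted p = 0.0516 and 0.0521), and for curcumin with CuCl2 without replicate 1 or 3 of that group (limma adjusted p = 0.0667 and 0.0636).

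TXN, the gene of cytosolic thioredoxin on chromosome 9 at 110243811 to 110256640 (minus strand), had 1721, 1495 and 1578 TPM in the curcumin-CuCl2 libraries, 1669, 1565 and 1675 TPM in the curcumin libraries and 1187, 1285 and 1443 TPM with palmitic acid alone. No library with palmitic acid alone reached the lowest curcumin library. Even so the differences of 0.29 (95% interval 0.11 to 0.48, limma adjusted p = 0.126) for curcumin with CuCl2 and 0.33 (0.15 to 0.51, limma adjusted p = 0.0837) for curcumin, on the log2 scale, did not pass. Without replicate 3 of palmitic acid alone, its highest library, TXN passed in both, at 0.37 (limma adjusted p = 0.0302) for curcumin with CuCl2 and 0.41 (limma adjusted p = 0.0212) for curcumin.

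TXNRD1, at 104215779 to 104350305 of chromosome 12 (plus strand), encodes the cytosolic thioredoxin reductase. Its TPM was 370.3, 448 and 409 in the curcumin-CuCl2 libraries, 339.6, 518 and 336 in the curcumin libraries and 390.02, 371 and 236 with palmitic acid alone. Curcumin replicate 2 was the highest of all libraries and replicate 3 of palmitic acid alone the lowest, and the groups overlapped. The log2 fold change was 0.33 (95% interval -0.15 to 0.81, limma adjusted p = 0.569) for curcumin with CuCl2 and 0.26 (-0.21 to 0.74, limma adjusted p = 0.67) for curcumin. These intervals were the widest of the 10 genes. Without replicate 3 of palmitic acid alone the estimates were 0.10 for curcumin with CuCl2 and 0.03 for curcumin. Its span overlaps EID3 on the same strand, at a mean of 10.7 TPM, and AC089983.1 on the other, at 15.6 TPM, and the sources used here do not say whether reads were counted by strand.

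The spread of TXNRD1 within groups moved with the mitochondrial share. In 2 of 3 groups TXNRD1 ranked the 3 libraries exactly as that share did, and so did SRXN1 and TXNIP, while TXN, TXNRD2 and PRDX1 ranked them in exactly the reverse order in 2 of 3 groups. How many of all genes did so was not counted, so whether this is particular to these genes is not known. The first principal component, the main axis of difference among libraries over all genes tested, was lowest in the library of each group with the highest share. It was -6.5 in curcumin-CuCl2 replicate 2, -18.9 in curcumin replicate 2 and -31.3 in replicate 1 of palmitic acid alone. With the share as a covariate, TXNRD1 was higher by 0.47 (SE 0.05, limma adjusted p = 0.0024) with curcumin and CuCl2 and by 0.43 (SE 0.06, limma adjusted p = 0.00332) with curcumin. In that fit TXN was also higher, by 0.25 for curcumin with CuCl2 (limma adjusted p = 0.00734) and 0.28 for curcumin (limma adjusted p = 0.00482). TXNRD2 was lower, at -0.27 for curcumin with CuCl2 (limma adjusted p = 0.0264) and -0.34 for curcumin (limma adjusted p = 0.0131). PRDX3 was higher, at 0.26 for curcumin with CuCl2 (limma adjusted p = 0.0186) and 0.203 for curcumin (limma adjusted p = 0.0411). PRDX2 passed only for curcumin with CuCl2, at 0.17 (limma adjusted p = 0.0242). That made 8 of 10 genes for curcumin with CuCl2 and 7 for curcumin, but the same fit passed 10.7% of all genes for curcumin with CuCl2 and 11.2% for curcumin.

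**Figure D2:**
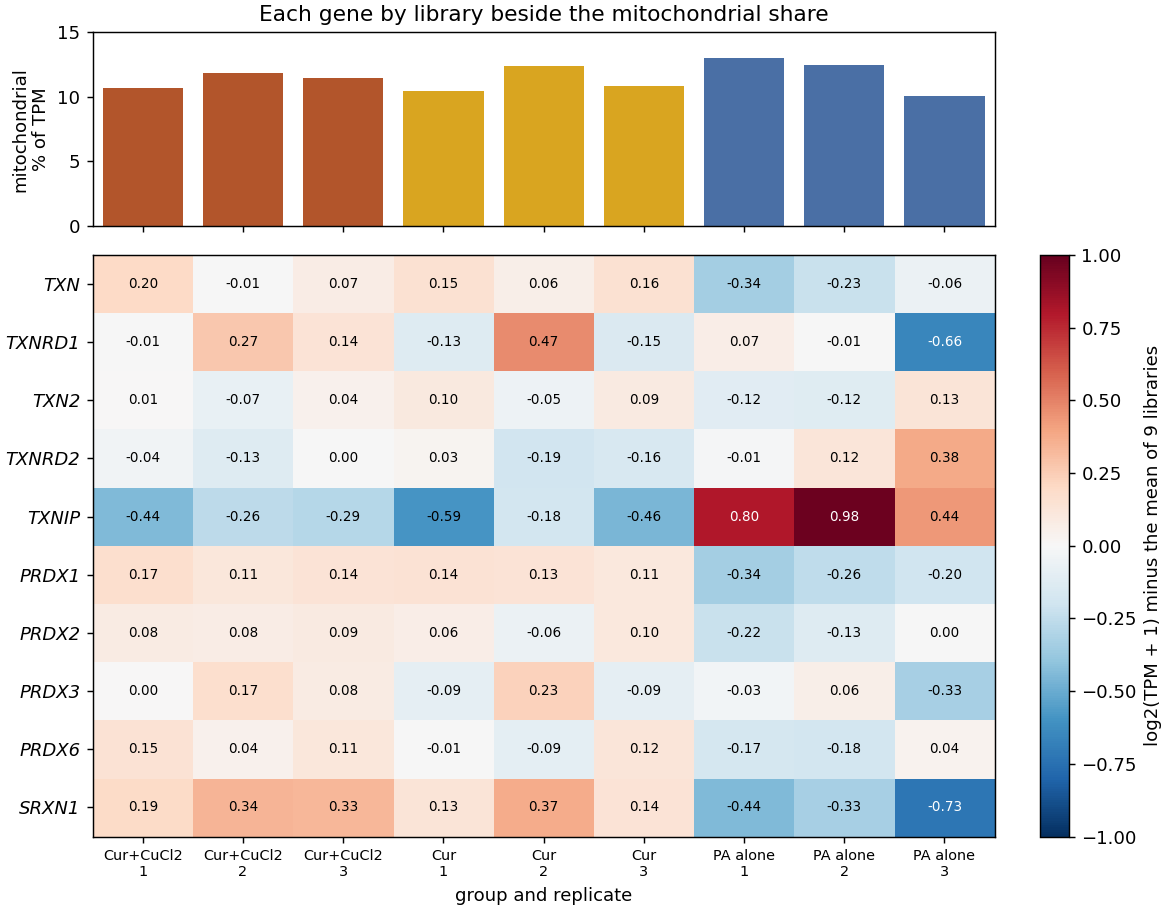
The upper bars give the percent of TPM from mitochondrial genes in each library (axis from 0), and the grid below gives log2(TPM + 1) minus the mean over the 9 libraries for each gene, in the order curcumin-CuCl2, curcumin and palmitic acid alone. TXNRD1 reached 0.47 in curcumin replicate 2 and -0.66 in replicate 3 of palmitic acid alone, the libraries with 12.4% and 10.1% mitochondrial TPM.

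Neither gene of the mitochondrial pair passed. TXN2, the gene of mitochondrial thioredoxin on chromosome 22 at 36467036 to 36482030, had 61.8, 58.4 and 63.4 TPM in the curcumin-CuCl2 libraries, 65.9, 59.5 and 65.6 TPM in the curcumin libraries and 56.7, 56.6 and 67.3 TPM with palmitic acid alone. The groups overlapped, with intervals of the log2 fold change of -0.17 to 0.22 for curcumin with CuCl2 and -0.11 to 0.28 for curcumin. TXNRD2, which encodes the mitochondrial thioredoxin reductase, is on chromosome 22 at 19875517 to 19941992. It had 39.96, 37.5 and 41.1 TPM in the curcumin-CuCl2 libraries, 41.9, 35.9 and 36.6 TPM in the curcumin libraries and 40.8, 44.8 and 53.6 TPM with palmitic acid alone. The groups overlapped only through replicate 1 of palmitic acid alone. The log2 fold change was -0.22 (95% interval -0.46 to 0.03, limma adjusted p = 0.426) for curcumin with CuCl2 and -0.27 (-0.51 to -0.03, limma adjusted p = 0.295) for curcumin. The interval for curcumin excludes 0 before adjustment, and the gene passed in both comparisons with the mitochondrial share as a covariate, as given above.

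Among the other peroxiredoxins none passed. PRDX2, a second cytosolic enzyme, on chromosome 19 at 12796820 to 12801859, had 634.9, 632.9 and 638 TPM in the curcumin-CuCl2 libraries, 627, 577 and 644 TPM in the curcumin libraries and 514, 549 and 599 TPM with palmitic acid alone. The curcumin-CuCl2 libraries lay above all those with palmitic acid alone, while the curcumin libraries overlapped them. Its log2 fold change was 0.2001 (limma adjusted p = 0.218) for curcumin with CuCl2 and 0.15 (limma adjusted p = 0.356) for curcumin. PRDX6, which encodes a peroxiredoxin with a single active cysteine that relies on glutathione, lies on chromosome 1 at 173477266 to 173488807. It had 597, 553 and 582 TPM in the curcumin-CuCl2 libraries, 536, 504 and 584 TPM in the curcumin libraries and 478, 474 and 553 TPM with palmitic acid alone. The lowest curcumin-CuCl2 library, at 553.47 TPM, only just cleared the highest with palmitic acid alone, at 552.79 TPM. The log2 fold change was 0.21 (limma adjusted p = 0.274) for curcumin with CuCl2 and 0.11 (limma adjusted p = 0.614) for curcumin. PRDX3, the gene of the mitochondrial peroxiredoxin on chromosome 10 at 119167703 to 119178833, had 146, 163 and 154 TPM in the curcumin-CuCl2 libraries, 137.02, 171 and 136.8 TPM in the curcumin libraries and 143, 152 and 115 TPM with palmitic acid alone. These overlapped, with estimates of 0.18 for curcumin with CuCl2 (limma adjusted p = 0.569) and 0.12 for curcumin (limma adjusted p = 0.759).

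Counted together, 8 of the 10 genes had a positive and 2 a negative estimate in each comparison, with a median log2 fold change of 0.203 for curcumin with CuCl2 and 0.14 for curcumin, against -0.03 for curcumin with CuCl2 and -0.02 for curcumin over all genes tested. Libraries of the curcumin-CuCl2 group lay wholly above those with palmitic acid alone in 5 of the 10 genes and wholly below in 1, where 8.67% and 10.3% of all genes did so. For the curcumin group the numbers were 3 and 1, against 8.15% and 8.61% of all genes. No more is read from these counts, since the 10 genes were chosen with earlier results of these data known. Pseudogenes named after TXN, TXN2, PRDX1, PRDX2 or PRDX3 each had a mean of at most 0.171 TPM in the table.

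**Figure D3:**
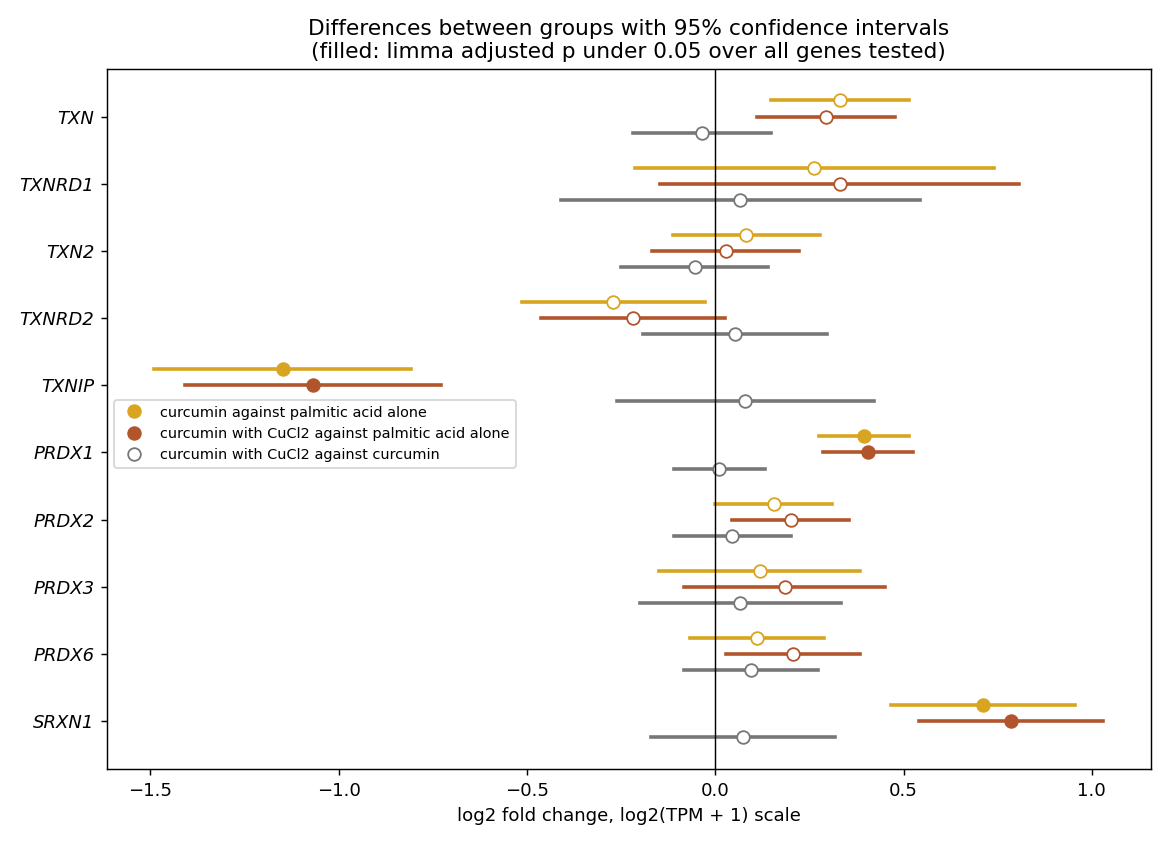
Points are log2 fold changes on the log2(TPM + 1) scale and lines their 95% intervals, for curcumin with CuCl2 and curcumin, each against palmitic acid alone, and for curcumin with CuCl2 against curcumin; filled points passed at a limma adjusted p under 0.05. SRXN1, PRDX1 and TXNIP are filled against palmitic acid alone, and every interval of curcumin with CuCl2 against curcumin includes 0.

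Copper was tested directly by setting curcumin with CuCl2 against curcumin. None of the 10 genes passed, and none had groups that did not overlap, against 6.24% of all genes (2.63% higher and 3.61% lower). Over all genes limma passed 0, or 0%, at an adjusted p under 0.05, with 215 of 13443 genes, 1.6%, and none of the 10 at an unadjusted p under 0.05. The intervals bound the differences: the log2 fold change lay between -0.11 and 0.13 for PRDX1, between -0.17 and 0.32 for SRXN1 and between -0.26 and 0.42 for TXNIP. For TXN it lay between -0.22 and 0.15, and for TXNRD1 between -0.41 and 0.54. A difference of those sizes could have been missed, so the test does not show that copper had no effect on them. The largest estimate among the 10 genes was that of PRDX6, at 0.09.

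Ratios within a library compare transcripts of the system without reference to the total, and protein and activity were not measured. TXNIP amounted to 1.08, 1.42 and 1.32 TPM per 100 TPM of TXN in the curcumin-CuCl2 libraries, 1.004, 1.44 and 1.099 in the curcumin libraries and 3.84, 4.02 and 2.43 with palmitic acid alone. The highest curcumin value was below the lowest with palmitic acid alone. SRXN1 stood at 6.68, 7.59 and 7.51 TPM per 100 TPM of its typical peroxiredoxin substrates (PRDX1 to PRDX4 summed) in the curcumin-CuCl2 libraries, 6.53, 7.86 and 6.597 in the curcumin libraries and 5.71, 5.82 and 4.21 with palmitic acid alone. Those groups did not overlap either. TXNRD1 per 100 TPM of TXN overlapped, at 21.5, 29.98 and 25.9 in the curcumin-CuCl2 libraries, 20.3, 33.1 and 20.1 in the curcumin libraries and 32.9, 28.9 and 16.3 with palmitic acid alone. These ratios were not tested, and those with TXNIP and SRXN1 partly restate the changes of these single genes given above.

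Other genes of the pathway were taken from 8 lists with 50 genes, of which 44 passed the filter on low values. None of the 44 passed in either comparison with palmitic acid alone, with 5 at an unadjusted p under 0.05 for curcumin with CuCl2 and 7 for curcumin. Of all genes tested, 13.5% had such a p for curcumin with CuCl2 and 14% for curcumin, so these counts are near the background. Of the 44, 27 had a positive estimate for curcumin with CuCl2 and 29 for curcumin, with medians on the log2 scale of 0.07 for curcumin with CuCl2 and 0.11 for curcumin. The libraries of the other peroxiredoxins overlapped between groups. PRDX4, of the endoplasmic reticulum, averaged 459.6 ± 13.3 TPM in the curcumin-CuCl2 group, 459.5 ± 21.5 TPM in the curcumin group and 419 ± 34.6 TPM with palmitic acid alone (SD, n = 3 each). PRDX5 averaged 601 ± 27.6 TPM in the curcumin-CuCl2 group, 642 ± 58.7 TPM in the curcumin group and 582 ± 100.5 TPM with palmitic acid alone. Its estimate for curcumin was 0.15 (limma adjusted p = 0.654). TXNRD3, a reductase gene known from mouse testis, was low, at 2.88 ± 0.757 TPM in the curcumin-CuCl2 group, 2.06 ± 0.173 TPM in the curcumin group and 1.77 ± 0.372 TPM with palmitic acid alone. Its estimate of 0.48 for curcumin with CuCl2 did not pass (limma adjusted p = 0.274).

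Among the remaining lists the largest estimates came from enzymes that repair oxidised methionine and from selenoprotein synthesis. MSRB1, itself a selenoprotein that reduces methionine sulfoxide, had estimates of 0.37 (limma adjusted p = 0.0754) for curcumin with CuCl2 and 0.35 (limma adjusted p = 0.0761) for curcumin, at 18.7 ± 1.33 TPM in the curcumin-CuCl2 group, 18.5 ± 0.219 TPM in the curcumin group and 14.3 ± 0.208 TPM with palmitic acid alone. PSTK, which encodes a kinase needed to make selenocysteine, had 0.35 for curcumin with CuCl2 (limma adjusted p = 0.415) and 0.41 for curcumin (limma adjusted p = 0.324). Glutaredoxin genes, which belong to the parallel glutathione route, had GLRX2 as their largest estimate, at 0.26 for curcumin with CuCl2 and 0.197 for curcumin. Of the thioredoxin-domain genes, 14 of 18 were tested, with TXNDC15 at -0.23 for curcumin with CuCl2 and NXNL2 at -0.28 for curcumin as the largest. Of the partners and clients, MAP3K5, which encodes the kinase ASK1 that thioredoxin restrains, had 0.26 for curcumin with CuCl2 and 0.28 for curcumin. The sestrin genes SESN1 and SESN2 reached 0.14 for curcumin with CuCl2 and -0.13 for curcumin. The arrestin relatives of TXNIP were led by ARRDC4, another known MondoA target, at -0.29 (limma adjusted p = 0.491) for curcumin with CuCl2, and by ARRDC2 at 0.26 (limma adjusted p = 0.272) for curcumin. ARRDC4 was scarce, at 0.86 ± 0.0954 TPM in the curcumin-CuCl2 group, 1.02 ± 0.194 TPM in the curcumin group and 1.28 ± 0.247 TPM with palmitic acid alone. For curcumin with CuCl2 against curcumin, none of the 44 genes passed or had an unadjusted p under 0.05. The largest estimate of each list there was TXNRD3 at 0.32, NXNL2 at 0.15, GLRX5 at 0.09, MSRB3 at 0.17, SESN2 at 0.04, RRM2 at -0.05, SEPSECS at 0.16 and MLXIPL at -0.20.

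**Figure D4:**
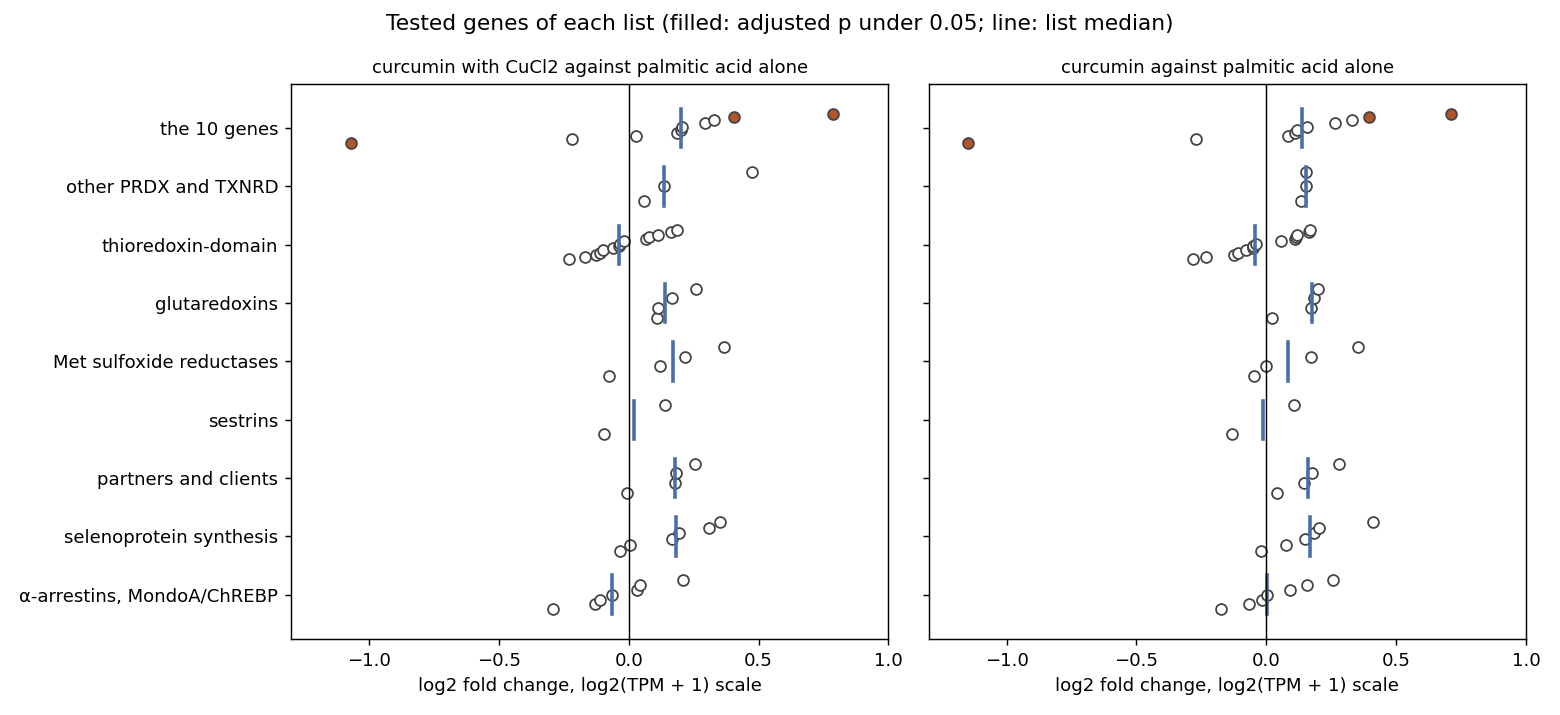
Each point is the log2 fold change, on the log2(TPM + 1) scale, of a tested gene of the 10 described or of a pathway list, for curcumin with CuCl2 (left) and curcumin (right) against palmitic acid alone; lines are list medians and filled points passed. Filled points occur only among the 10 genes, in both panels.

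Patterns across the 9 libraries were matched for SRXN1 and TXNIP, the genes that passed with a log2 fold change of at least 0.5 in size. Likeness was the root mean square difference of log2(TPM + 1) after centring each gene on its mean, over 9202 other genes with a symbol and a mean of at least 5 TPM. Closest to SRXN1 was CAT, the catalase gene, at 0.086, followed by ME1, the cytosolic malic enzyme gene, at 0.09007, and GSR, the glutathione reductase gene, at 0.114. CAT averaged 52.4 ± 5.03 TPM in the curcumin-CuCl2 group, 55.1 ± 9.03 TPM in the curcumin group and 33.4 ± 5.35 TPM with palmitic acid alone. Closest to TXNIP were SAMD4A at 0.105, ANKRD1 at 0.119 and IFIT1, an interferon-induced gene, at 0.123. ANKRD1 averaged 25.6 ± 0.545 TPM in the curcumin-CuCl2 group, 23.2 ± 2.09 TPM in the curcumin group and 56.1 ± 12.03 TPM with palmitic acid alone. For scale, the NRF2 target genes HMOX1 and GCLM had log2 fold changes of 2.50 and 1.01 for curcumin with CuCl2 and 2.6 and 0.82 for curcumin, against 0.78 for SRXN1 with curcumin and CuCl2 and 0.71 with curcumin.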

How the data were processed

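Messenger RNA was measured in 9 libraries, 3 per group, from a stranded mRNA kit per the labels' protocols. The authors deposited TPM, which is scaled by gene length and library total. The submitters' processing notes list HISAT2 2.1.0, RSEM 1.3.3 and GRCh38.p13, and the annotation release and strand setting are not given in the sources used here. TPM keeps no depth, so no counting interval is given and no count model was used.

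Values were taken as log2(TPM + 1), and 13443 genes averaging 1 TPM or more were tested with limma 3.58.1 in R 4.3.3. All 9 libraries entered a single fit with group means and a variance trend. Tests were two-sided, adjusted over all genes tested by the Benjamini-Hochberg method at 0.05. Fold changes on this scale understate changes of low genes. The labels do not name separate cultures, so p-values measure only the spread between libraries, which may be technical. The test was checked on simulated data in which genes varied independently. That check does not cover differences that many genes of a library share.

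All 10 genes, every pathway gene that passed, the largest estimate of each pathway list and the 3 most similar genes of a strongly changed member were to be named, with HMOX1 and GCLM for scale. The genes and lists were chosen with earlier results of these data known. Promoters came from RefSeq GRCh38.p14 and gene positions from GENCODE 29. Each library was left out in turn, and the fit was repeated with the mitochondrial share as a covariate, without a variance trend, with a replicate block, with only the 2 groups of a comparison, without mitochondrial genes, with median-of-ratios scaling, with a filter at 5 TPM or none, and with pseudocounts of 0.1 and 5.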

Additional observations from a re-analysis of the deposited data

How the results depend on the processing

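Of 570 refits of the 10 genes over 19 alternatives and 3 comparisons, 525 kept direction and side of the threshold, 24 lost a call, 11 gained a call, and 10 changed the sign of an estimate that passed in neither fit. No call changed direction. The genes passing among the 10, 3 in each comparison with palmitic acid alone, numbered 0 for curcumin with only the 2 groups compared, and 7 for curcumin and 8 for curcumin with CuCl2 with mitochondrial share as a covariate. Leaving out a library gave 1 (curcumin replicate 1 or 3) to 4 for curcumin, and 0 (curcumin-CuCl2 replicate 3) to 4 for curcumin with CuCl2, where curcumin-CuCl2 replicate 1 or 2 gave 1. Over all genes, the 264 passing for curcumin became 104 without a filter, 35 with only the 2 groups, 130 without a variance trend, 1505 with the covariate (57.3% higher, against 38.6%), and 54 (without curcumin replicate 3) to 619 (without replicate 3 of palmitic acid alone), with every library left out moving it over 1.5 times. The 194 for curcumin with CuCl2 became 114 without a filter, 65 with the 2 groups, 1436 with the covariate (53.0% higher, against 37.6%), and 46 (without curcumin-CuCl2 replicate 1 or 3) to 527 (without replicate 3 of palmitic acid alone), moving over 1.5 times for every library but curcumin replicate 2. For curcumin with CuCl2 against curcumin the 0 became 1 with a pseudocount of 5, 3 without a filter, 3 with the 2 groups, and 0 to 4 without a library. Of the 44 pathway genes, 5 passed for curcumin and 4 for curcumin with CuCl2 with the covariate, and 1 for curcumin without replicate 3 of palmitic acid alone. The cause of these shifts was not tested.

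Replicate numbers did not pair the libraries: the deviations of same-numbered libraries correlated at -0.269 to 0.246 across genes in 9 pairs, over 0.1 in 2 of them. A replicate block passed 177 genes for curcumin and 147 for curcumin with CuCl2, and kept all 3 calls among the 10 genes in both. Depth is unknown, so low genes such as ARRDC4 and TXNRD3 may be set by few reads.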
